A study of Mus musculus with 10 samples.

Results

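Amino acid transporters are the membrane proteins that carry amino acids into and out of the cell and its lysosomes. The genes described here were those whose name on the array falls in the carrier families Slc1, Slc3, Slc6, Slc7, Slc36, Slc38 or Slc43. They were 60 genes of the 34607 names on the array, read by 79 probes and 97 spots. Of these, 18 genes passed the filter on dim probes and were among the 13676 genes tested, 35 were well above background on no scan, and 7 were above it on 1 to 3 of the 10 scans.

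The cells were C2C12, a mouse myoblast line that differentiates into muscle fibres in culture, grown in high-glucose medium with serum. They were transfected by lipid with a synthetic copy (mimic) of miR-142-3p at 150 nM, or with a scrambled RNA as control, at an estimated efficiency of 60%, and their RNA was taken after 72 hours. The labels give 6 mimic and 4 scramble replicates, and the scramble titles carry the remark that they were re-analysed. The file headers place these 10 scans on 1 slide with 5 array positions that were each read on 2 days, so the scans of a position were averaged into 3 mimic and 2 scramble arrays. The series' text calls the replicates independent transfections, which 5 positions cannot hold one by one, and nothing names the culture behind each array. The p-values therefore cover only how far these 5 arrays scatter, part of which may be technical. Bulk RNA was measured, so fewer cells of a type and less RNA per cell cannot be told apart, and the untransfected cells of each dish are in the same RNA.

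The families do different work. Many Slc7 proteins are the light chains of exchangers that need an Slc3 heavy chain to reach the surface, while the cationic carrier Slc7a1 works without one. LAT1, the Slc7a5 protein bound to the Slc3a2 protein, brings in leucine and other large neutral amino acids in exchange for glutamine, and intracellular leucine and arginine switch on mTORC1, the kinase complex that drives protein synthesis and muscle growth. Slc38 and Slc1 members carry in glutamine, alanine, serine and glutamate with sodium. The Slc6 family includes carriers of glycine, taurine, creatine and transmitters, Slc36 carriers move small amino acids with protons, and Slc43 holds further carriers of large neutral amino acids. When amino acids run short, the transcription factor ATF4 switches on many of these genes through a short promoter element.

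The RNA put into the cells is shown because its seed, the stretch that pairs with target transcripts, defines the perturbation. Its mature mouse form, from RefSeq (GRCm38.p6, chr11:87756903-87756925, plus strand), has bases 2 to 8, the seed, in capitals.
mmu-miR-142a-3p: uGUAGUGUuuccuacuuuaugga
The letters that pair with this seed, ACACTAC, were in 0 of the 79 member probes and in 144 of the 55681 probes of the array (0.259%). A probe covers only 60 bases of its transcript, so this says nothing about the rest of it.

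Between the mimic and scramble arrays, 1 of the 18 measured transporter genes passed the test: Slc7a5 was 2.04-fold lower with the mimic. That is 5.56% of the measured genes, against 9.74% of all genes tested (5.86% higher, 3.88% lower; limma, Benjamini-Hochberg adjusted p below 0.05). Values here are log2 processed signals minus the 75th percentile of the scan, and a difference is mimic minus scramble on that scale. The 18 differences ran from −1.03 to 0.66 with a median of −0.25, where the median over all genes was 0.09. 13 were negative and 5 positive. Before adjustment 4 of the 18 had a p below 0.05, as did 25.3% of all genes. The mimic and scramble arrays did not overlap for 9 of the 18 (7 lower and 2 higher with the mimic), or 50%, against 42.4% of all genes tested. These shares, taken without regard to direction, lie near those of the whole array. The signs of all differences and the direction of non-overlap were not counted over all genes. The lean of the transporters to lower values is therefore not read as a result. In the same arrays 6 of 7 markers of muscle differentiation fell, with a median of −5.06, and the part of that in the transporter values was not tested.

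**Figure D1:**
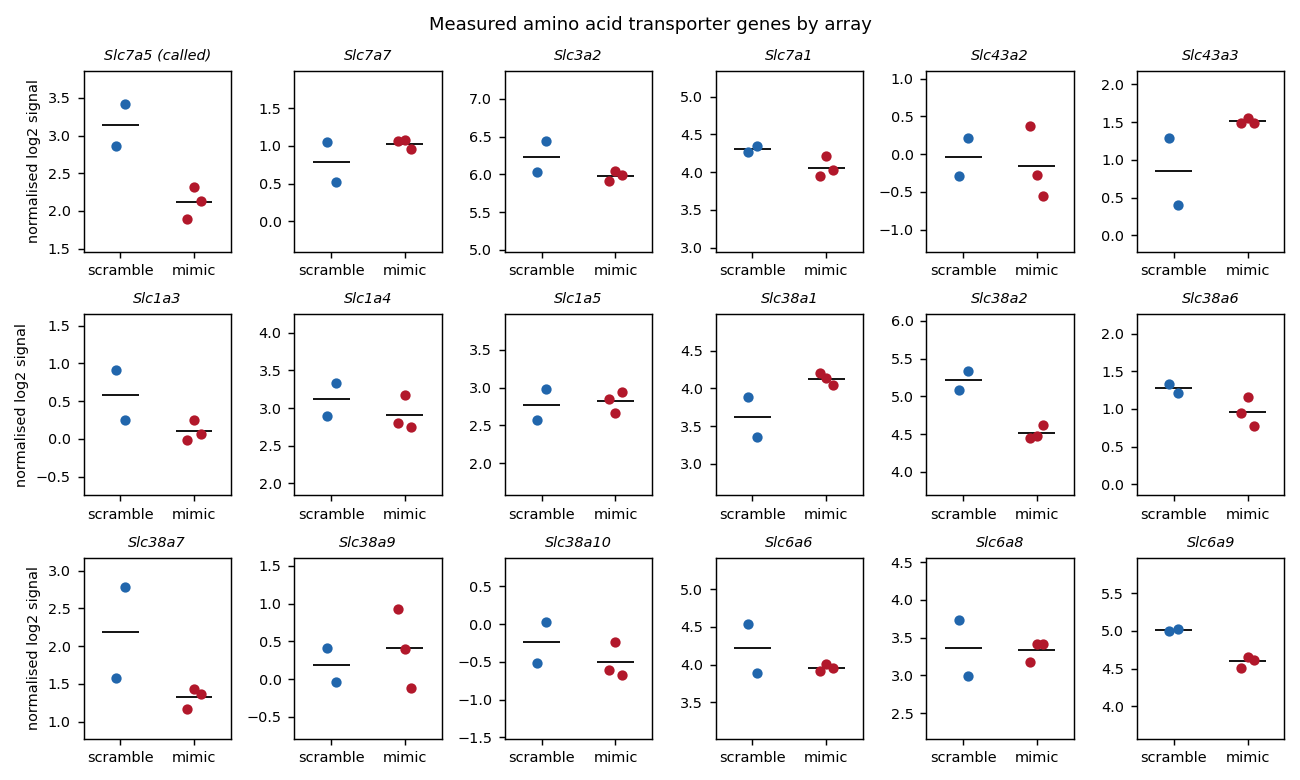
Normalised log2 signal (vertical axes, each panel spanning the same number of log2 units) of the 18 measured transporter genes in the 2 scramble arrays (blue) and the 3 mimic arrays (red), each point the mean of the 2 scans of an array and each bar a group mean. Slc7a5 is the gene that passed the test; the 3 mimic arrays lie between 1.90 and 2.31 and both scramble arrays above 2.8.

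Among the exchangers, Slc7a5 had log2 signals of 1.90, 2.31 and 2.13 in the 3 mimic arrays and of 2.86 and 3.42 in the 2 scramble arrays. Both scramble arrays were above every mimic array. The group means were 2.11 ± 0.21 (SD, n = 3) with the mimic and 3.14 ± 0.40 (SD, n = 2) with the scramble. The difference was −1.03 ± 0.25 (SE; 95% limits −1.59 to −0.46; limma adjusted p = 0.0366). The call was lost without mimic array 1 (−0.92, limma adjusted p = 0.140), mimic array 2 (−1.13, 0.0754) or mimic array 3 (−1.03, 0.110). It was lost without scramble array 2 (−0.74) and kept without scramble array 1 (−1.31). Each of those last fits has 1 scramble array and so no spread in that group, and no p-value is given. The call was lost too with the slide row as a block (−0.96, limma adjusted p = 0.0565) and under median scaling (−0.95, 0.246). It was also lost with no filter on dim probes (0.322) and with the mean of the gene's probes (−0.94, 0.0628). Median scaling gave every transporter, and each list gene said below to lose its call there, the same SE of 0.427. Losses under it thus come with a wider SE than the reported one. The call held on each scan day by itself, with differences of −0.94 on the first (limma adjusted p = 0.0451) and −1.12 on the second (0.0446). Both days read the same arrays, so this is a repeated reading and no separate support. Within the slide row of 2 mimic arrays and 1 scramble array the difference was −0.84, and in the row of 1 and 1 it was −1.11, with no test. The sign was the same in both rows for 12 of the 18 genes.

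A second Slc7a5 probe reads another place in the gene. The probe that stands for the gene lies at chr8:124405136-124405195 and the other at chr8:124430996-124431055 (mm9, minus strand), 25.8 kb apart. The second is printed because it gives a separate reading of the only gene called, and its letters hold open reading frames along their whole length.
Slc7a5 second probe: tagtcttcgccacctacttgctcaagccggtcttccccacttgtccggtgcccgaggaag
It read −0.16, 0.49 and 0.20 in the mimic arrays and 0.66 and 1.40 in the scramble arrays. Again both scramble arrays were the higher ones, and the second probe was well above background on 5 of the 6 mimic scans. Its difference was −0.85 ± 0.29, which did not pass in the fit over every kept probe (limma adjusted p = 0.113), where the first probe did (0.0377) among the 9.5% of probes called.

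The heavy chain Slc3a2, the partner of Slc7a5, read 5.91, 6.05 and 5.99 with the mimic and 6.03 and 6.44 with the scramble, so the groups overlapped. Its difference was −0.25 (95% limits −0.74 to 0.23; limma adjusted p = 0.494), and these limits leave room for a fall of up to 0.74. Slc7a1, the main carrier of arginine and lysine, read 3.94, 4.21 and 4.02 against 4.27 and 4.35, a difference of −0.25 (limits −0.70 to 0.20; adjusted p = 0.469). Slc7a7, a light chain that exports cationic amino acids, read 1.06, 1.07 and 0.96 against 1.06 and 0.52, a difference of 0.24 (limits −0.27 to 0.75; adjusted p = 0.543). None of these 3 passed the test. Slc7a4 was above background on 3 mimic scans and no scramble scan (measured means −0.79 and −1.56). Its mimic mean was 1.14-fold above the background limit of the scramble arrays, a bound without an error. Mimic array 1 (−1.10) lay near scramble array 1 (−1.15). The other Slc7a4 probe was above background on no scan, with a difference of −0.14. Slc7a4 was not tested, and no direction is given for it. Slc7a12 was above background on 1 mimic scan. Well above background on no scan were 11 of the 17 Slc3 and Slc7 genes: Slc3a1, Slc7a2, Slc7a3, Slc7a6, Slc7a8, Slc7a9, Slc7a10, Slc7a11 (the cystine importer xCT), Slc7a13, Slc7a14 and Slc7a15.

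Slc38 was the family with the most measured genes, 6 of 11, and none passed the test. Slc38a2 encodes SNAT2, the sodium-coupled importer of alanine and glutamine that cells raise when amino acids are short. It read 4.44, 4.47 and 4.62 in the mimic arrays and 5.08 and 5.34 in the scramble arrays. The groups did not overlap, and the difference of −0.70 ± 0.20 (95% limits −1.16 to −0.24) missed the threshold (limma adjusted p = 0.0663). It passed in 8 of 20 other settings, among them quantile normalisation (−0.82, limma adjusted p = 0.0465). The 8 include fits with each scan as its own sample, which count the reads of an array as replicates. They also include the fit without scramble array 1 (−0.83), which leaves 1 scramble array.

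Slc38a1 encodes SNAT1, a glutamine importer, and its probe lies 112 kb from that of Slc38a2 on chromosome 15 (mm9). It read 4.20, 4.14 and 4.04 with the mimic and 3.89 and 3.36 with the scramble, so here the mimic arrays were the higher ones. The difference was 0.50 ± 0.22 (limits −0.01 to 1.02; limma adjusted p = 0.209). It was 0.24 without scramble array 2 and 0.77 without scramble array 1, each fit having 1 scramble array left. A second kept probe gave 0.07 ± 0.20 (adjusted p = 0.866). These neighbouring genes thus had point estimates of opposite sign, neither past the threshold, and the difference between the 2 genes was not tested.

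Slc38a7 and Slc38a9 work at the lysosome, the first as a glutamine exporter and the second as a carrier that reports arginine to mTORC1. Slc38a7 read 1.16, 1.44 and 1.37 with the mimic and 1.58 and 2.78 with the scramble. The 2 scramble arrays were far apart, and the difference of −0.86 ± 0.33 (limma adjusted p = 0.157) rested largely on scramble array 2. Without that array the difference was −0.26, and without scramble array 1 it was −1.46, each fit having 1 scramble array left. Slc38a9 read 0.93, 0.40 and −0.12 against 0.42 and −0.04, a difference of 0.22 (limits −0.51 to 0.94) with groups that overlapped. Slc38a6 read 0.95, 1.16 and 0.78 against 1.34 and 1.21, a difference of −0.31 (limits −0.79 to 0.16) with the mimic arrays lower. Slc38a10 read −0.61, −0.24 and −0.67 against −0.51 and 0.03, a difference of −0.27 (limits −0.83 to 0.30) with overlap. The adjusted p-values of the last 3 were 0.711, 0.384 and 0.534. Slc38a3, Slc38a4, Slc38a5, Slc38a8 and Slc38a11 were above background on no scan.

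Of the 7 Slc1 genes 3 were measured. Slc1a5 encodes ASCT2, a glutamine and serine exchanger, and its probes went opposite ways. The probe that stands for it read 2.85, 2.67 and 2.95 with the mimic and 2.57 and 2.98 with the scramble, a difference of 0.05 (limits −0.45 to 0.55; limma adjusted p = 0.919). The other, 273 bases away (chr7:17383027-17383086, mm9), read −0.06, −0.28 and 0.01 against −0.09 and 1.60, a difference of −0.87 ± 0.43 (adjusted p = 0.251). In that second probe scramble array 1 lay among the mimic arrays, and scramble array 2 stood alone. No direction can be given for this gene.

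Slc1a4, the alanine, serine and cysteine exchanger ASCT1, read 2.80, 3.17 and 2.76 with the mimic and 2.90 and 3.33 with the scramble, a difference of −0.21 (limits −0.75 to 0.33). Slc1a3, a glutamate importer best known from glia, read −0.01, 0.24 and 0.07 against 0.92 and 0.25, a difference of −0.48 (limits −1.05 to 0.08) that was −0.15 without scramble array 1 and −0.82 without scramble array 2. Its groups only just did not overlap, and its limma adjusted p was 0.260 against 0.620 for Slc1a4. Slc1a1, Slc1a6 and Slc1a7 were above background on no scan, and Slc1a2 on 1 mimic scan.

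**Figure D2:**
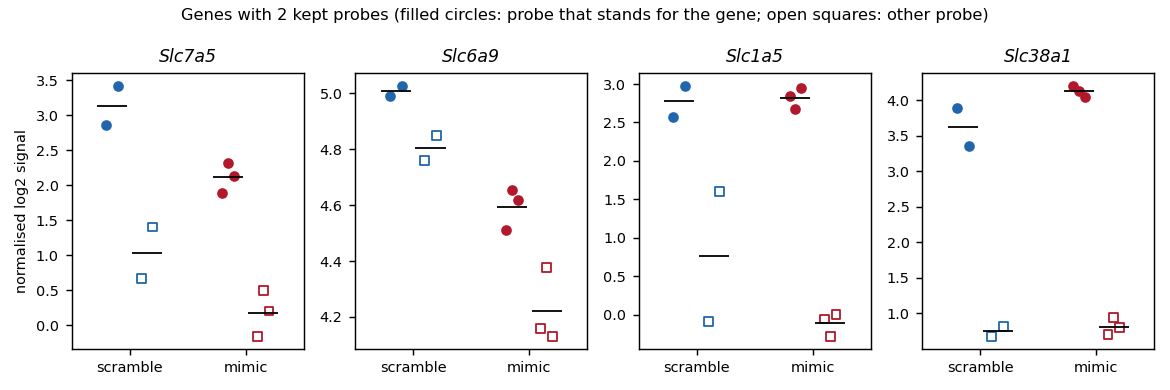
Normalised log2 signal by array of the 4 transporter genes with 2 kept probes, with the probe that stands for the gene as filled circles and the other as open squares. Levels of different probes cannot be set against each other. The 2 probes of Slc7a5 and of Slc6a9 have the same sign, and the second Slc1a5 probe has 1 high scramble array (1.60).

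Of the 18 Slc6 genes, 3 were measured and none passed. Slc6a9 encodes GlyT1, a glycine importer. It read 4.51, 4.66 and 4.62 with the mimic and 4.99 and 5.03 with the scramble. Both scramble arrays were above all mimic arrays and close to each other, and the difference was −0.41 ± 0.19 (limits −0.85 to 0.02; limma adjusted p = 0.218). Its second probe, which shares 51 bases of position with the first, gave −0.58 ± 0.20 (adjusted p = 0.113) and is not a separate reading.

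Slc6a6, the taurine carrier, read 3.91, 4.01 and 3.95 with the mimic and 4.54 and 3.89 with the scramble, a difference of −0.26 (limits −0.81 to 0.28; limma adjusted p = 0.531). Slc6a8, the creatine carrier of muscle, read 3.17, 3.42 and 3.41 against 3.73 and 2.98, a difference of −0.03 (limits −0.62 to 0.57; adjusted p = 0.966). Both had 1 scramble array above and 1 below the mimic arrays. Slc6a3, Slc6a5 and Slc6a16 were above background on 1 or 2 mimic scans each and no scramble scan. The 12 other Slc6 genes were above it on no scan, among them the transmitter carriers Slc6a2 (noradrenaline) and Slc6a4 (serotonin).

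Slc43a2, the leucine carrier LAT4, read 0.37, −0.28 and −0.56 with the mimic and −0.28 and 0.21 with the scramble, a difference of −0.12 (limits −0.82 to 0.58; limma adjusted p = 0.846). Slc43a3, placed in the family by sequence but known to carry purine bases, read 1.49, 1.56 and 1.49 against 1.29 and 0.41. All mimic arrays were the higher ones, yet the difference of 0.66 ± 0.27 (limma adjusted p = 0.178) rested on scramble array 2. The difference was 0.22 without that array and 1.10 without scramble array 1, each fit having 1 scramble array left. Slc43a1 was above background on no scan. No Slc36 gene was measured: Slc36a1 was above background on a few scans, and Slc36a2, Slc36a3 and Slc36a4 on none.

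**Figure D3:**
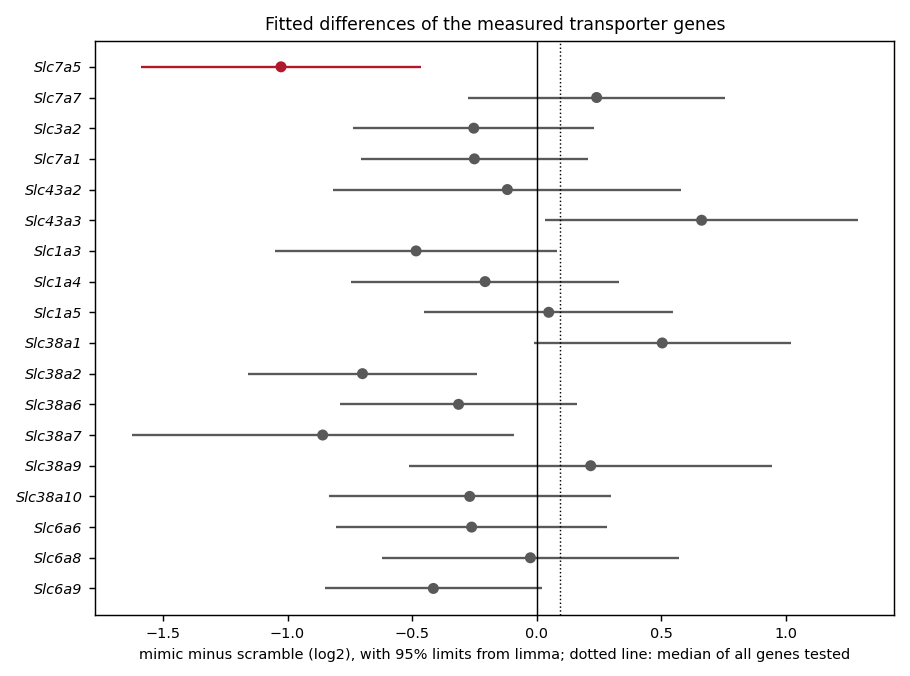
Difference (mimic minus scramble, log2) of each measured transporter gene with its 95% limits from limma, Slc7a5 in red as the gene called, and a dotted line at the median of all genes tested (0.09). 13 of the 18 points lie below 0, and the widest interval, that of Slc38a7, runs from −1.63 to −0.09.

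Promoters of members were looked at for the element that ATF4 binds, since it links several of these carriers to amino acid shortage. RefSeq windows (GRCm38.p6, from 250 bases before to 50 after a start site) covered 42 of the 60 genes in 63 windows, and 12 of the 18 measured ones. No Slc7a5 window was searched. TTGCATCA, searched on both strands, was in 4 of the 63 windows (6.35%), which belong to 3 genes, and in 0.89% of the 32851 windows of all genes. The wider core TGATGNAA, which takes in the same letters, was in 6.35% against 3.97%, the E-box CANNTG in 71.43% against 72.31%, CACGTG (itself an E-box) in 14.29% against 7.15%, and the core of the antioxidant response element in 44.44% against 43.65%. Windows of 1 gene can overlap, and the Slc7a7 match lies in overlapping windows and was counted in each. The matches in the 3 genes are printed 5′ to 3′ on the minus strand, with the element in capitals on either strand.
Slc7a11 promoter, chr3:50443648-50443683: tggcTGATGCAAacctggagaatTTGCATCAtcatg
Slc1a4 promoter, chr11:20332698-20332727: gcctcctgcgTTGCATCAtctccagcctgc
Slc7a7 promoter, chr14:54417929-54417958: gggacctagaagcTGATGCAAcagcttccc
The Slc7a11 elements begin 66 and 47 bases before its start site, that of Slc1a4 4 bases and that of Slc7a7 1 base before it. Of these genes Slc7a11 was not above background, and Slc1a4 (−0.21) and Slc7a7 (0.24) did not pass the test. A match is a run of letters, not a measured binding site.

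The other genes of amino acid handling were read from 6 lists, and a gene may stand on more than one. Among 16 measured carriers of other families, 4 were called lower and 1 higher (31.2%), but 2 of these 5 passed the filter on dim probes through 1 group alone and had to differ, so nothing is read from this share. The choline carrier Slc44a1 fell by 1.17 on the log2 scale (limma adjusted p = 0.00781), a call lost under median scaling (−1.09, 0.131) and with no filter (0.156). Slc22a4, a carrier of ergothioneine, was above background on 5 mimic and 0 scramble scans and was at least 1.73-fold higher (measured means −0.21 and −1.78). It passed the filter through the mimic group alone, so no test is given for it, and with normexp background correction its difference was 0.67, below that bound. Such a bound compares the bright group's mean with a background limit: for each dim array, the faintest signal still called above background, or the probe's own signal if that is brighter.

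The mitochondrial carriers of basic amino acids, Slc25a29, and of branched-chain amino acids, Slc25a44, fell by 1.09 ± 0.25 and 0.99 ± 0.25 (limma adjusted p = 0.0313 and 0.0454). Both calls were lost without any 1 of the 3 mimic arrays or scramble array 2, with differences of −0.73 to −1.11 for Slc25a29 and −0.79 to −1.09 for Slc25a44. They failed in 10 and 12 of 19 other settings, and with normexp their differences were −0.66 and −0.36. Neither gene was well above background on every scan. The list's median was 0.10.

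Of 12 measured partners and regulators of the carriers, 1 rose and none fell. Sgk1, a kinase that raises the surface amount of several carriers, rose by 0.92 ± 0.22 (1.90-fold; limma adjusted p = 0.0362). That call was lost without any mimic array or scramble array 2 (0.77 to 1.04), under median scaling (adjusted p = 0.192) and with no filter (0.364). It was lost too on the second scan day (0.84, limma adjusted p = 0.0954) and with the slide row as a block (0.91, 0.0848). Nedd4l, the ubiquitin ligase that removes carriers from the surface, differed by 0.78 ± 0.21 and missed the threshold (adjusted p = 0.0520). Bsg differed by −0.79 (adjusted p = 0.181) and Rnf185 by 1.75 ± 0.92 (0.275). The list's median was 0.19.

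In the list of amino acid sensing by mTORC1, 1 of 35 measured genes fell and none rose, with a median of −0.08. Mios, a subunit of the GATOR2 complex that relays amino acid supply to mTORC1, fell by 1.35 ± 0.24 (2.54-fold; limma adjusted p = 0.0103). Mios was not well above background on every scan. With normexp its difference was −0.63 (limma adjusted p = 0.0423), and the call was lost under median scaling (−1.27, 0.0533) and with no filter (0.138). Rptor, the scaffold of mTORC1 itself, differed by −0.48 (adjusted p = 0.170), Itfg2 by −0.85 (0.134) and Fnip2 by 0.67 (0.186).

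Of 30 measured genes of the amino acid starvation response, 1 fell and 2 rose, with a median of 0.05. Fgf21, a secreted hormone that ATF4 switches on under stress, fell by 4.74 ± 0.25 (26.7-fold; limma adjusted p = 2.7e-05). Fgf21 was not well above background on every scan, so the size of its fall is uncertain, and with normexp the difference was −4.01. Ndrg1, a growth-arrest and hypoxia gene, rose by 2.03 ± 0.22 (4.09-fold; 0.000811). Ddit4, which restrains mTORC1, rose by 0.998 ± 0.246 (limma adjusted p = 0.0409). That call was lost without any mimic array or scramble array 2 (0.67 to 1.07), under median scaling (0.140) and with no filter (0.345). It was lost too on the second scan day (0.88, limma adjusted p = 0.0980) and with the slide row as a block (0.96, 0.0859). With the authors' value table the difference was 0.88 and also missed the threshold (0.0506). Vldlr differed by 0.87 and did not pass (0.0752). The calls of this list therefore ran in both directions.

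None of the 22 measured cytosolic aminoacyl-tRNA synthetase genes passed limma's adjusted threshold, 1 had an unadjusted p below 0.05, and their median was −0.14. Vars (−0.68, adjusted p = 0.196), Farsa (−0.43, 0.244), Farsb (−0.47, 0.258) and Iars (−0.31, 0.380) were the first 4 in order of p. These enzymes load amino acids onto tRNA. Of 32 measured genes of amino acid synthesis and breakdown, 2 fell and none rose, with a median of 0.03. Gatm, the first enzyme of creatine synthesis, fell by 1.21 ± 0.22 (limma adjusted p = 0.0129), a call lost without mimic array 1 (−1.24) or mimic array 2 (−1.14), under median scaling (0.110) and with no filter (0.178). Gpt2, the mitochondrial alanine transaminase, fell by 0.95 ± 0.22 (limma adjusted p = 0.0340). That call was lost without any mimic array or scramble array 2 (−0.72 to −0.995), under median scaling (0.325) and with no filter (0.343). It was lost too on the first scan day (−0.94, limma adjusted p = 0.0527) and with the slide row as a block (−0.90, 0.0679). Gamt, the second enzyme of creatine synthesis, differed by −0.85 and Csad of taurine synthesis by −0.56, neither past the threshold (0.111 and 0.113).

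**Figure D4:**
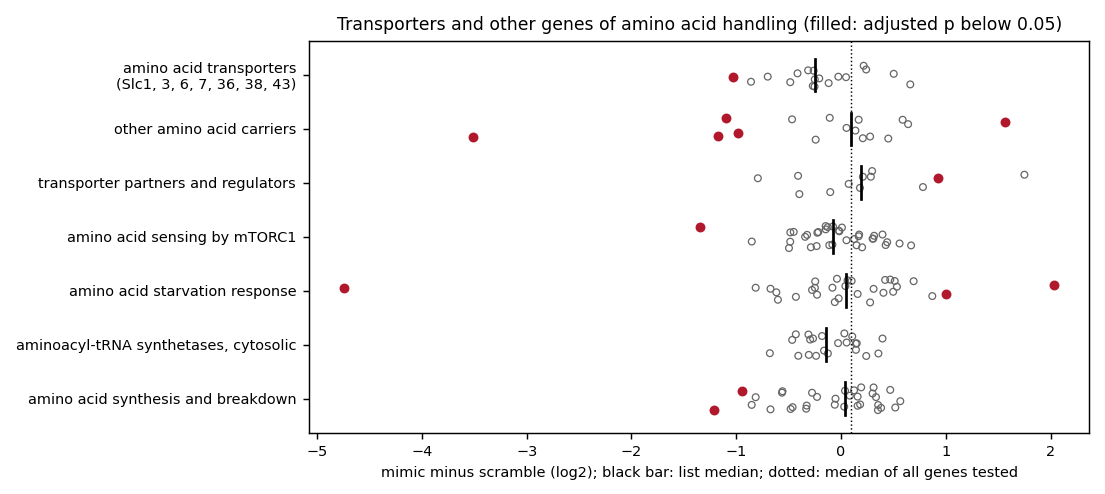
Difference (mimic minus scramble, log2) of each measured gene in the transporter families and the 6 other lists, filled where the limma adjusted p is below 0.05, with list medians as bars and the median of all genes as a dotted line. 1 of 18 transporters is filled, and the most negative point is Fgf21 (−4.74).

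The state of the cells differed between the groups. Of 7 markers of muscle differentiation 6 fell, with a list median of −5.06, and their summed linear level ran from 22.4 to 28.3 in the mimic arrays and from 519 to 535 in the scramble arrays. Myog, the factor that starts terminal differentiation, fell by 7.08 and cardiac actin Actc1 fell by 5.37. Of 5 measured myoblast markers 4 fell (sums 176 to 189 against 322 to 390), among them Myod1, which was above background on all scans. Of 4 proliferation genes 2 rose, Ccnb2 and Cdc20 (sums 86.4 to 95.4 against 37.7 to 53.0). With 1 array left out, the calls of Ccnb2 were lost without any mimic array (1.24 to 1.33), those of Cdc20 and of the integrin Itga7 without any mimic array or scramble array 2 (0.72 to 1.07 and −0.66 to −0.76), and that of desmin, Des, without mimic array 1 (−1.23) or 2 (−1.33). None of the 3 measured leukocyte markers was called (17.5 to 20.1 against 16.7 to 17.2), with no scan above background for the other 3, nor were the 2 of neurons and glia (14.1 to 16.8 against 11.9 to 13.2) or the 1 of endothelium (2.76 to 3.77 against 2.20 to 2.86). All 5 epithelial and 3 adipocyte markers were above background on no scan. The part of these marker changes in the Slc7a5 result was not tested, and in these arrays treatment and muscle state cannot be told apart.

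**Figure D5:**
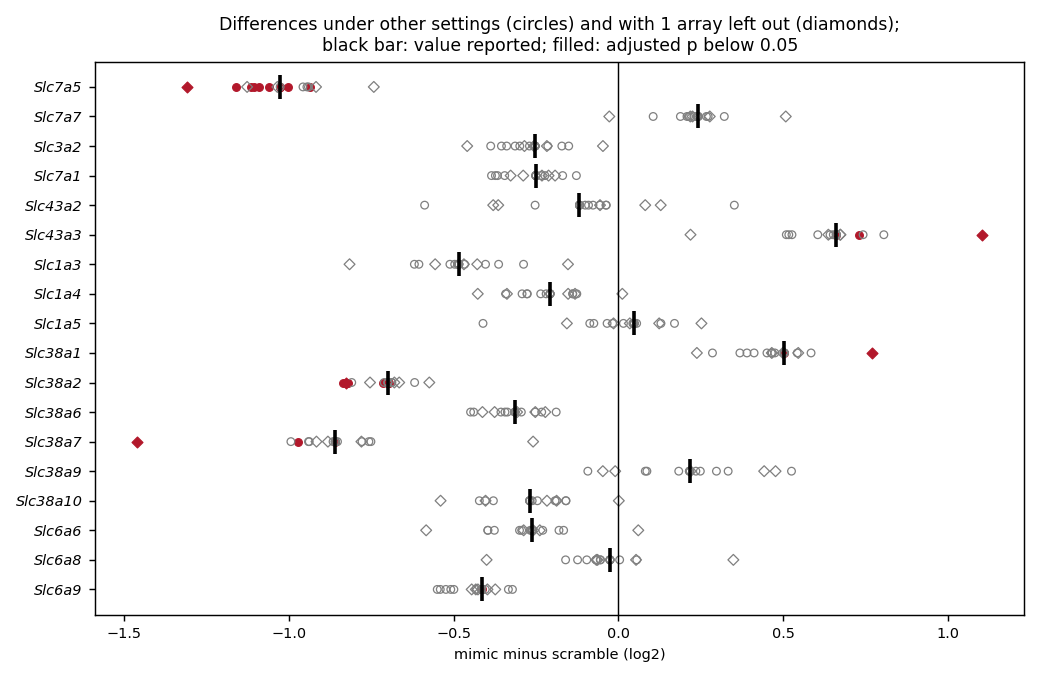
Difference (mimic minus scramble, log2) of each measured transporter gene as reported (black bars), under other settings (circles) and with 1 array left out (diamonds), filled red where the limma adjusted p is below 0.05. Slc7a5 stays between −1.31 and −0.74 and is filled in 12 of 20 settings. The 12 include fits with each scan as its own sample, which count the reads of an array as replicates. They also include the fit without scramble array 1, which leaves 1 scramble array.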

How the data were processed

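Per the file headers, the authors' scanner files hold 1-colour (Cy3) spot intensities made with Feature Extraction 12.0.0.7 on probes placed on mm9. Per the submitters' processing notes the version was 10.7.3.1. RNA (150 ng) was amplified and labelled, per the labels. The deposited processed signal, already corrected for background, was turned into log2, and each scan's 75th percentile (control spots left out) was subtracted. Outlier-marked spots were left out and spots of a probe averaged. Probes well above background on at least 4 of 10 scans were kept (17455), between 25.4% and 34.6% of spots being so per scan. The probe with the highest mean stood for its gene. Array positions were averaged over their scans (r between 0.986 and 0.991 within a position, 0.906 to 0.991 between positions). Groups were compared with limma 3.58.1 in R 4.3.3 over all 13676 genes (1332 called at adjusted p below 0.05), and the script was tested on simulated data. It found 85% of simulated 4-fold changes, 6.57% of 2-fold changes and 0.821% of 1.5-fold changes, so a gene not called may still have changed. Fewer genes changed in the simulation than were called here, which alters the adjusted threshold. With 5 arrays, precision is limited by their number. The deposited value table, intensities on a linear scale with a between-array step not given in the sources used here, served as an alternative.

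Members, lists and tests were chosen with earlier results of these data known. Named are members called, members above background on all scans or with probes of opposite sign, and of each list called genes and up to 4 in order of p. Slc38a10, Slc43a2 and members on 1 to 3 scans, outside that rule, were named to account for these genes. Some genes are not reported here by name. The file's symbol was the RefSeq symbol for 76 of 79 member probes.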

Additional observations from a re-analysis of the deposited data

How the results depend on the processing

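The reported value was 1 transporter gene called and 1332 genes in all. Other settings gave, for transporters and for all genes where the count moved by over 1.5 times, 6 and 4154 with each scan as its own sample, 4 and 2336 with each scan as its own sample and the replicate block, 0 and 810 with the slide row as a block, 0 and 761 with median scaling, and 0 and 407 with no filter. Transporter counts were 2 with blocks for scan day and array (the array's random), scaling to the percentile of bright probes alone (those above background on each scan), quantile normalization, normexp or the filter of all 10 scans, and 0 when a gene's probes were averaged. Leaving out 1 array gave 0 to 5 transporters and 641 to 3671 genes. Without a scramble array the lone one is assumed to vary like the others. Over all other settings the calls ranged from 1 to 9 among other carriers (reported 5), 0 to 5 among partners (1), 0 to 8 in mTORC1 sensing (1), 2 to 12 in the starvation response (3), 0 to 3 among synthetases (0) and 0 to 9 in synthesis and breakdown (2). Replicate numbers were not taken as pairs (r between −0.27 and 0.19, none correlating best with its own number). The median of all genes, 0.09, was −0.04 and 0.18 under the percentile over bright probes and median scaling.

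10 of 18 transporters kept their sign in all 20 other settings where they had a value. Signs turned for Slc1a5 on the second scan day (−0.0745), with the bright-probe percentile (−0.0868), quantile normalization (−0.0343), probe means (−0.41) and the authors' value table (−0.0176), for Slc38a9 on the first day (−0.0927), for Slc43a2 on the second (0.35), and for Slc6a8 on the second (0.0038) and with median scaling (0.0557). With 1 array left out, values ran from −0.43 to 0.0119 for Slc1a4, −0.16 to 0.25 for Slc1a5, −0.54 to 0.0013 for Slc38a10, −0.0472 to 0.48 for Slc38a9, −0.38 to 0.13 for Slc43a2, −0.58 to 0.0604 for Slc6a6, −0.40 to 0.35 for Slc6a8 and −0.0276 to 0.51 for Slc7a7. The cause was not tested. The 35 transporters above background on no scan have no measured difference here.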
